A study of Mus musculus with 6 samples.

Results

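Type 2 vomeronasal receptor genes (Vmn2r) were examined in Treg, the CD4 T cells that express Foxp3 and restrain immune responses (regulatory T cells). The members are all rows of the deposited count table whose mouse symbol is Vmn2r followed by digits alone, with no filter on level. There were 92 of them among 37991 rows, and all 92 are annotated as protein coding. RNA was sequenced from YFP+ Treg of mouse spleen, with 3 libraries labelled KAP1 sufficient (wild type) and 3 labelled KAP1 deficient. The strain background is given as C57BL/6 for the sufficient libraries and deficient replicate 1, as C57BL/7 for deficient replicate 2 and as C57BL/8 for deficient replicate 3. In the deficient libraries the strain number thus rises with the replicate number, and whether these are distinct strains could not be checked. The sources used here do not give the age of the mice, how KAP1 was removed or whether animals were pooled. Nothing in the labels ties each library to its own animal, and the p-values below therefore measure the spread between these libraries, which may be technical.

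Vmn2r proteins are class C G protein-coupled receptors with a long extracellular ligand-binding domain. They are known from sensory neurons in the basal layer of the vomeronasal organ, where they detect peptides and proteins that carry social signals, and each neuron expresses very few of them. They signal through the G protein subunit Gnao1 and the channel Trpc2, and some appear at the cell surface with H2-M10 proteins and B2m. The genes lie in tandem arrays of near copies. KAP1, the product of Trim28, is tethered to DNA by KRAB zinc finger proteins and recruits enzymes that write repressive chromatin.

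Trim28 went against the label in 2 libraries. Trim28 had 2462, 2483 and 218 counts in sufficient replicates 1, 2 and 3, and 232, 185 and 2544 in deficient replicates 1, 2 and 3. Trim28 was therefore high in the libraries labelled sufficient replicate 1, sufficient replicate 2 and deficient replicate 3, and low in those labelled sufficient replicate 3, deficient replicate 1 and deficient replicate 2. Values below are given by label and beside this level. Sets of libraries formed by Trim28 level are described and not tested, because they are not the labelled groups. Library totals ran from 9954344 to 10994745 counts, and a gene at 0 in a library could have had up to 3 counts there, which is 0.273 to 0.301 CPM (counts divided by the library total and multiplied by 1000000). The Treg markers Foxp3, Il2ra and Cd4 each had at least 5934 counts in every library.

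In the count table the Vmn2r family was nearly silent in these Treg apart from Vmn2r96. No count in any library was found for 87 of the 92 members (94.6%), and a count of 0 over all 6 libraries allows up to 0.0487 CPM. These limits cover counting error only. Counts were found for 5 members (5.43%), against 49.1% of all rows of the table. All members together held 988 counts, of which Vmn2r96 held 977 (98.9%). The other 4 members with counts were Vmn2r94 and Vmn2r99 with 4 each, Vmn2r97 with 2 and Vmn2r84 with 1. Each of these 4 genes thus stood at or near the floor. The authors' deposited table of their own comparison, given below, puts Vmn2r84 and Vmn2r97 higher, at mean levels of 30.4 and 22.1. A count of 0 is also uncertain for members that share much sequence with other genes.

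**Figure D1:**
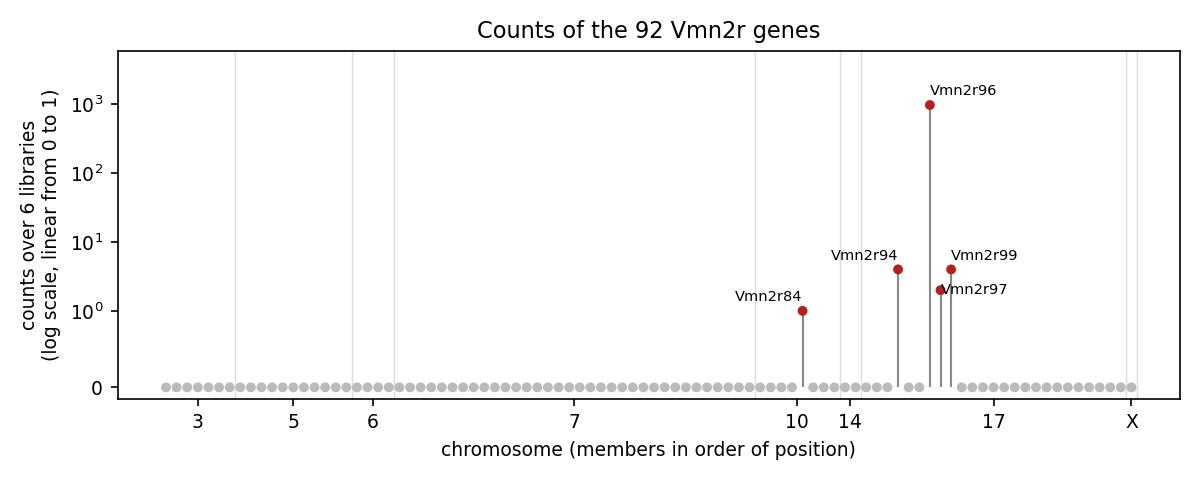
Counts summed over the 6 libraries (vertical axis, log scale that is linear from 0 to 1) for each of the 92 Vmn2r genes, in order of position along the chromosomes (horizontal axis). Grey points are the 87 genes at 0, and Vmn2r96 stands at 977 counts above the 4 other genes with 1 to 4.

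Vmn2r96 (ENSMUSG00000091679) lies on the plus strand of chromosome 17, from 18573151 to 18616003 on mm10. The annotation gives it 4 transcripts, 2 of them protein coding, and no other row of the table overlaps it. The long coding transcript has 6 exons and runs from 18573151 to 18601713. The short coding transcript has 5 exons and runs from 18581727 to 18598157. Counts are per gene, so they do not show which transcript was made.

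The start regions of Vmn2r96 and of the flanking members, Vmn2r95 upstream and Vmn2r97 downstream, are shown because Vmn2r96 held 977 counts while Vmn2r95 held 0 and Vmn2r97 held 2. RefSeq sequences on GRCm38.p6 run from 250 bases before to 50 after the annotated start, 5′ to 3′ on the plus strand, with CpG dinucleotides in capitals. The positions are chr17:18423854-18424153 for Vmn2r95, chr17:18581477-18581776 for Vmn2r96 and chr17:18914072-18914371 for Vmn2r97.
Vmn2r95: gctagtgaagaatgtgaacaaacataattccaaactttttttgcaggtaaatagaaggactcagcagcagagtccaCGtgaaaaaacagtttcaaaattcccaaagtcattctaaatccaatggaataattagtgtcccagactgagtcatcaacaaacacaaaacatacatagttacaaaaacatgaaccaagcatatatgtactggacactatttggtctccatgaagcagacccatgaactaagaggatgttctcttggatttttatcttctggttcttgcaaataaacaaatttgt
Vmn2r96: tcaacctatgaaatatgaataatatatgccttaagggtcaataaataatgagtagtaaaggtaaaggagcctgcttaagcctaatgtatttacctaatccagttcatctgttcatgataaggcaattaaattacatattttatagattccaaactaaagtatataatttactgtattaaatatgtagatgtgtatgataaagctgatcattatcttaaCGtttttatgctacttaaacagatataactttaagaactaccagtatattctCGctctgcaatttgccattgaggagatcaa
Vmn2r97: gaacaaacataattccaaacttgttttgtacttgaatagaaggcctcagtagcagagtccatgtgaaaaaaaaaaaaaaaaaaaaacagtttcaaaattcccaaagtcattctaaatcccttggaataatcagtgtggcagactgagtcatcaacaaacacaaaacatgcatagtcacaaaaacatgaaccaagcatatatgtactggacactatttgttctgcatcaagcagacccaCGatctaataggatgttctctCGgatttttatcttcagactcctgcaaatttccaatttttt

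The Vmn2r96 window contained 2 CpG dinucleotides, that of Vmn2r95 1 and that of Vmn2r97 2. RefSeq windows were matched for 88 of the 92 members, with a median of 1 CpG and at most 4, against a median of 7 over all 32851 windows. The CpG count of the Vmn2r96 window, at the start of its short transcript, was thus within the range of member windows. Its GC content was 29%, and the median was 38% over members and 52.7% over all windows. The RefSeq start of Vmn2r96 lies 8576 bases downstream of the start of the first exon of the long transcripts, where 3 of the 4 transcripts begin. Of the transcript starts, the window printed for it thus covers that of the short transcript alone. The second exon of the long coding transcript begins at 18581717, inside this window. Values from this window therefore do not describe the start of the long transcripts. The windows of Vmn2r95 and Vmn2r97 lie at the starts of their genes, at 18424078 and 18914300. The Vmn2r96 window is thus not like them in position, and differences from them cannot be read as differences between gene starts. The letters TGAGTCA, the core sequence bound by AP-1 factors, were searched on both strands after the sequences were read. They occur in the windows of Vmn2r95 and Vmn2r97 and not in that of Vmn2r96, in 17 of 88 member windows (19.3%) and in 5.2% of all windows. In the long Vmn2r96 transcript the letters, or their reverse complement, begin at base 139 of the first exon, which is 463 bases long.

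Vmn2r96 was high in the libraries of low Trim28 and low in the others, whatever their label. In sufficient replicates 1, 2 and 3 the table gives Vmn2r96 15, 19 and 262 counts, which is 1.48, 1.87 and 25.4 CPM. In deficient replicates 1, 2 and 3 it gives 307, 363 and 11 counts, which is 30.5, 36.5 and 1.0 CPM. The labelled groups overlap, since each held libraries at both levels. By Trim28 level the libraries did not overlap: the lowest of the 3 with low Trim28 was 13.6 times the highest of the 3 with high Trim28. Among the former the highest was 1.43 times the lowest, and among the latter 1.87 times. Vmn2r96 was not at 0 in any library, so its transcripts were also counted where Trim28 was high.

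**Figure D2:**
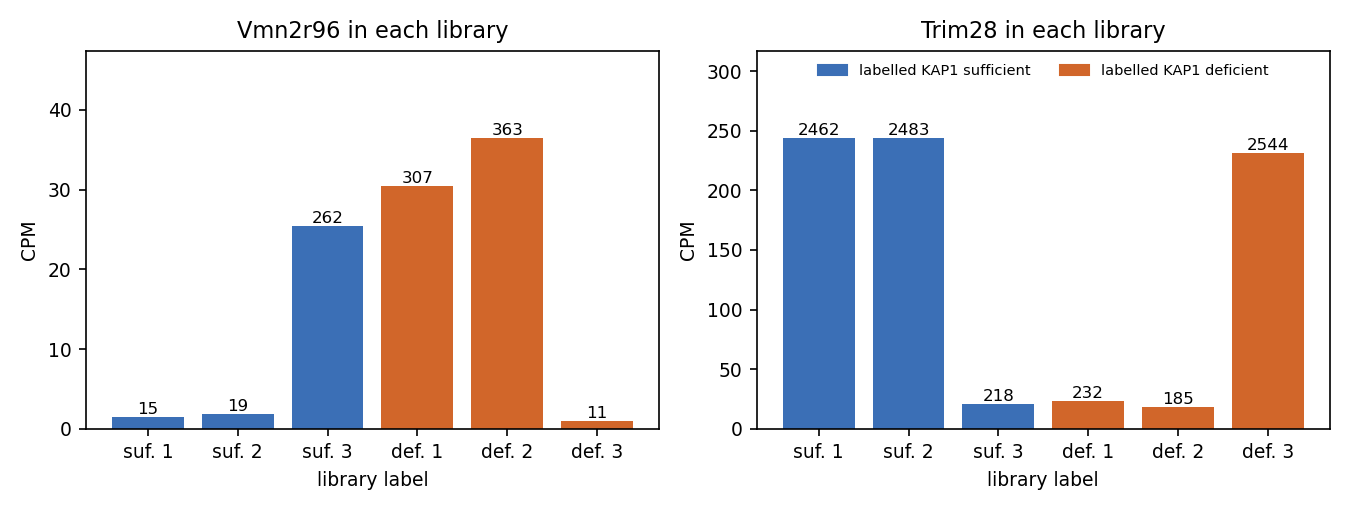
CPM of Vmn2r96 (left) and Trim28 (right) in each of the 6 libraries, coloured by label (suf., sufficient; def., deficient), with raw counts above the bars. Vmn2r96 stands at 25.4 to 36.5 CPM in the 3 libraries where Trim28 is at 18.6 to 23.0 CPM, and at 1.0 to 1.87 CPM in the 3 where Trim28 is at 231 to 244 CPM.

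Under the labels, no Vmn2r gene passed the test. Vmn2r96, the 1 member that passed the filter on low counts, had a mean of 9.60 ± 13.7 CPM over sufficient and 22.6 ± 19.0 CPM over deficient libraries (SD, n = 3 per label). Its log2 fold change, deficient minus sufficient, was 1.23 ± 1.60 (SE), with an edgeR quasi-likelihood adjusted p of 0.86. An exact two-sided permutation test on its CPM gave p = 0.4, where 3 libraries against 3 cannot go below 0.1. Of all 12158 genes tested in this comparison, 2 were called at an adjusted p under 0.05 (0.0165%), 1 of them higher in deficient libraries (0.00823%), and 944 had an unadjusted p under 0.05. Without sufficient replicate 3 the count over all genes was 807 of 12336, with Vmn2r96 not among them. Every alternative that kept all 6 libraries, or left out any 1 of them, also gave 0 called members, DESeq2 and limma-voom included.

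With the libraries labelled sufficient replicate 3 and deficient replicate 3 left out and the labels of the other 4 kept, Vmn2r96 rose. It averaged 1.68 ± 0.270 CPM in sufficient replicates 1 and 2 and 33.5 ± 4.25 CPM in deficient replicates 1 and 2 (SD, n = 2 each). The edgeR fit put the change at 4.31 ± 0.19 on the log2 scale (SE, adjusted p = 6.95e-10), beside a median of -0.00 over all genes tested. In this comparison 17.4% of 12183 tested genes were called in either direction, 9.96% higher and 7.39% lower in deficient libraries. The counts behind it were 34 over the 2 sufficient and 670 over the 2 deficient libraries, and the CPM ratio was 19.9, which counting error alone (exact binomial, 95%) places between 14.1 and 29.1. The 2 libraries left out were chosen by their Trim28 level, and 2 libraries per group give a narrow basis for the SE. In the libraries left out, Vmn2r96 stood in sufficient replicate 3 at 76% of the mean of deficient replicates 1 and 2, and in deficient replicate 3 at 59.7% of the mean over the other libraries of high Trim28.

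**Figure D3:**
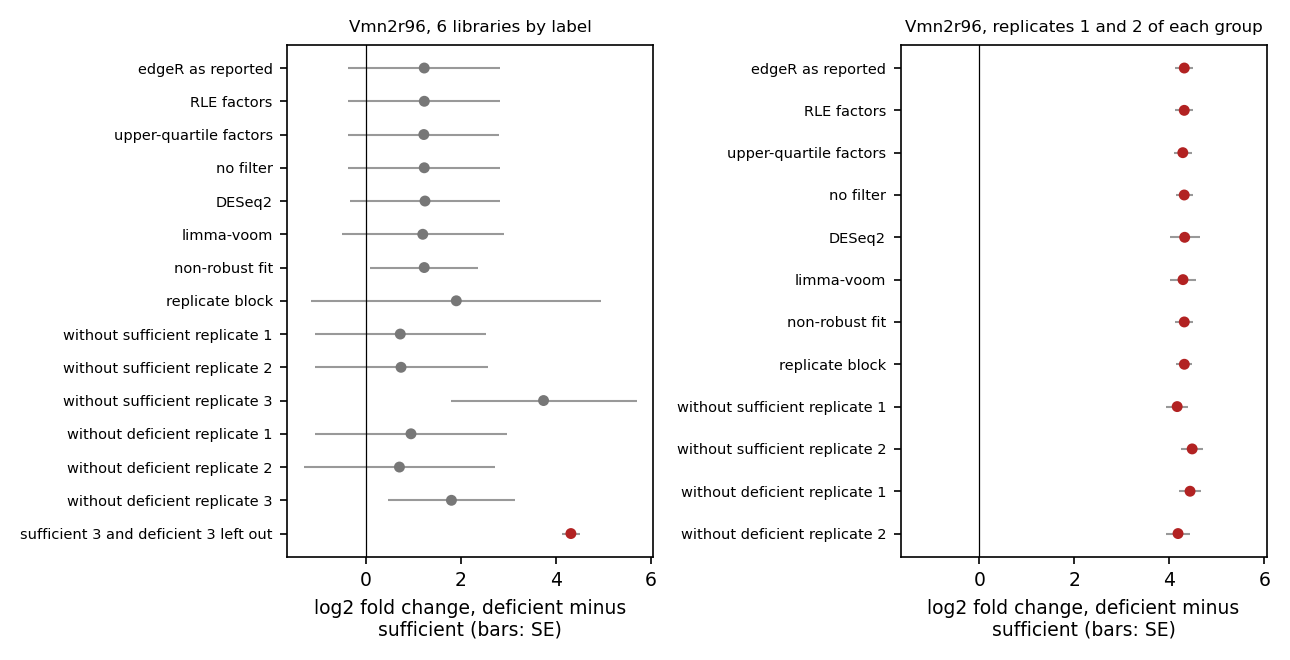
Log2 fold change of Vmn2r96 (horizontal axis, deficient minus sufficient; bars are the SE) under each way of fitting, with all 6 libraries by label (left) and with replicates 1 and 2 of each group (right). Red points have an adjusted p under 0.05; on the left this holds where sufficient replicate 3 and deficient replicate 3 were left out, and on the right the values run from 4.16 to 4.48.

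The gap between the 2 sets of libraries was wide for Vmn2r96 compared with other genes. Of the 12158 genes tested with all libraries, 1444 (11.9%) were higher in every library of low Trim28 than in any library of high Trim28. The ratio of the lowest of the former to the highest of the latter reached that of Vmn2r96, 13.6, for 19 genes, Vmn2r96 included.

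Scaled by exon length, 6894 bases for Vmn2r96, its level was 0.215, 0.271 and 0.145 CPM per kilobase (RPKM) in sufficient replicates 1 and 2 and deficient replicate 3. It was 3.69, 4.42 and 5.29 RPKM in sufficient replicate 3 and deficient replicates 1 and 2. Of the protein-coding rows, 31.3% had no count in any library. On this scale Vmn2r96 ranked above 45.2% to 47.6% of all protein-coding rows in the first 3 libraries and above 62.1% to 66.5% in the others. In the libraries of low Trim28 it stood near what remained of Trim28 itself, at 4.47 to 5.53 RPKM, and far under Foxp3, the lineage factor of Treg, at 130 to 136 RPKM.

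Vmn2r94 was the member found with low Trim28 and not with high Trim28. Its 4 counts were all in deficient replicate 1, and sufficient replicate 3 and deficient replicate 2, also low in Trim28, held 0. The mirror image also held 1 member, Vmn2r84, whose 1 count was in deficient replicate 3. Over all 18647 rows with counts, 6.33% had them in the libraries of low Trim28 alone and 5.88% in those of high Trim28 alone. No member had a count in all 3 libraries of low Trim28 and none in the other 3. The count of 1 rests on single libraries: it was 0 without deficient replicate 1, and 3 without sufficient replicate 2.

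Vmn2r99 had 1 count in sufficient replicate 2, 2 in deficient replicate 1 and 1 in deficient replicate 2. Vmn2r97 had 1 count each in sufficient replicates 2 and 3. With no filter on low counts these members entered the edgeR test, Vmn2r84 with 6 libraries alone, and none of them passed with 6 or with 4 libraries. The lowest edgeR adjusted p among them was 0.783 with 6 and 0.312 with 4 libraries, in each case for Vmn2r94 and with 6 libraries for Vmn2r84 and Vmn2r97 too. At 1 to 4 counts in all, a difference was not detectable at this depth.

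Summed over the family, members held 15, 21 and 263 counts in sufficient replicates 1, 2 and 3 and 313, 364 and 12 in deficient replicates 1, 2 and 3. Without Vmn2r96 the sums were 0, 2 and 1 in the sufficient and 6, 1 and 1 in the deficient libraries. The difference in summed level between the labelled groups, 13.2 CPM, was 0.164 CPM without Vmn2r96. Nearly all of the summed difference thus lay in Vmn2r96.

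The members fall into 17 groups on 8 chromosomes where neighbours more than 1 Mb apart are separated, with 34 members on chromosome 7 and 25 on chromosome 17. The group that holds Vmn2r96 runs from 17703747 to 20596423 on chromosome 17 and has 18 members, 4 of them with counts. The other member with a count, Vmn2r84, lies on chromosome 10, and the other 15 groups had no count in any library. Vmn2r56 and Vmn2r55, the members nearest to Trim28 on chromosome 7 at 264 and 314 kb, had 0 counts in every library.

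Around Vmn2r96 the count table was nearly empty. Of 10 other rows within 500 kb, 6 are Vmn2r genes and 4 Vmn2r pseudogenes; 2 had counts, 6 in all, and none passed the filter for testing. The nearest tested genes were the processed pseudogene Gm7535, 660 kb upstream, and the processed pseudogene Gm5145, 1954 kb downstream. In this stretch of 2.66 Mb, Vmn2r96 was the 1 row tested, and the 36 other rows, 15 of them Vmn2r genes, held 10 counts in all. This holds for the rows of the count table alone. The authors' deposited table puts Vmn2r97 at a mean level of 22.1. It also calls Vmn2r98, a gene of the chromosome 17 group at a mean level of 15.8, for which no count row was matched. With 4 libraries Gm7535 had a log2 fold change of -0.31 ± 0.14 and did not pass (edgeR adjusted p = 0.156), and Gm5145 fell (-0.78 ± 0.25, edgeR adjusted p = 0.0409). Beyond them, Spaca6 (-0.33 ± 0.40) and the phosphatase subunit gene Ppp2r1a (0.05 ± 0.05) did not pass.

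**Figure D4:**
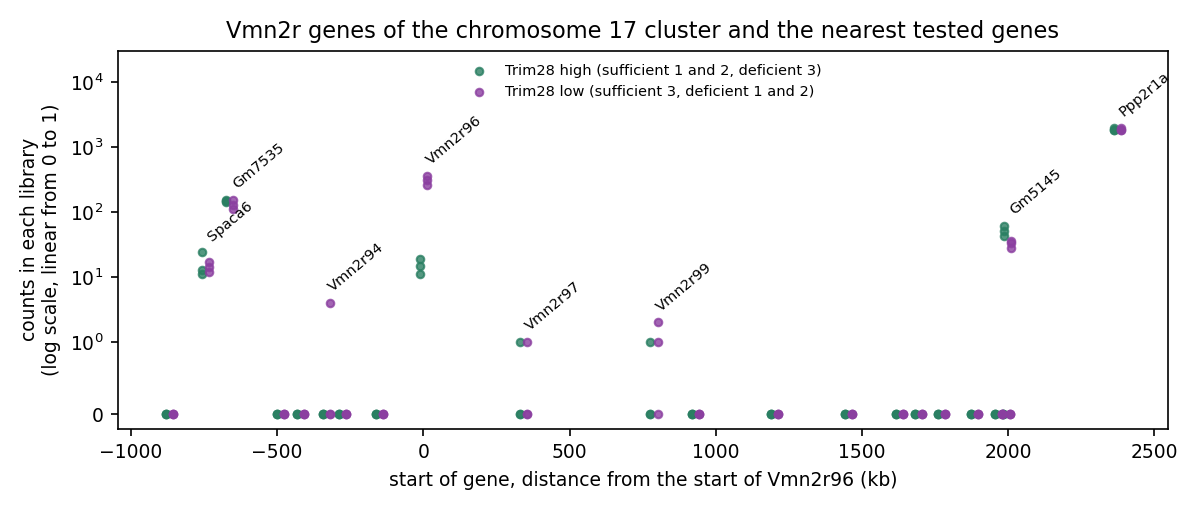
Counts in each library (vertical axis, log scale that is linear from 0 to 1) against the distance of each gene's start from the start of Vmn2r96 (kb), for the 18 Vmn2r genes of its group and the 4 nearest tested genes. Green points are libraries of high and purple points of low Trim28; the colours stand apart at Vmn2r96, with 11 to 19 against 262 to 363 counts, and at Gm5145, where low Trim28 goes with the lower counts.

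Near copies can share reads, so the members were compared by sequence. Of the 50-base words in annotated transcripts of Vmn2r96, 18.8% also occur in transcripts of another gene. The largest shares were with Vmn2r-ps117 (13.04%), which had 0 counts, and Vmn2r97 (5.05%), which had 2. Over the 92 members the shared portion ran from 0.226% to 97.8%, with a median of 15.7%, and 14 members shared more than 50%. Of the 68 members that shared at most 25%, 63 had no counts. The sources used here do not say how reads that match several genes were counted, so values of members with high sharing are uncertain.

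Other chemosensory receptor genes were also nearly silent. Counts were found for 2 of 99 Vmn1r genes, the other vomeronasal receptor family, with 2 counts in all. For Olfr genes, the odorant receptors, they were found for 13 of 858 genes, with 85 in all. They were found for 1 of 75 Vmn2r pseudogenes, 1 of 35 Tas2r genes for bitter taste receptors, and 0 of 7 Taar genes. The highest of all these was Olfr56, with 7, 5 and 5 counts in sufficient replicates 1, 2 and 3 and 7, 3 and 6 in deficient replicates 1, 2 and 3. Olfr56 thus showed no gap by Trim28 level, and no member of these 5 families passed the filter for testing. Of 7 formyl peptide receptor genes, which neighbour the Vmn2r group on chromosome 17, Fpr1 had 2 counts and the other 6 had 0.

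The signalling partners of the receptors were mostly missing. Of 16 genes for V2R signalling and surface partners, 12 had 0 counts in all libraries, among them all 6 H2-M10 genes. Gnao1, the G protein subunit, had 5 counts over the 6 libraries and Gng8 had 1. No row was matched to the symbol of Trpc2, so it was not analysed here. B2m, which every nucleated cell makes for MHC class I, had 25182 to 28004 counts and Itpr3, an intracellular calcium channel gene, 3155 to 3584. Both were tested and neither passed with 6 or 4 libraries, with log2 fold changes in the 4 libraries of -0.05 ± 0.05 and -0.02 ± 0.06. Among 15 other class C receptor genes, 9 had 0 counts and none of the 3 tested passed; Gabbr1, a GABA receptor gene, had 2014 to 2298 counts.

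Markers of neurons were sparse. Of 15 such markers in the table, 9 were at 0, including Gap43, Ncam1, Stmn2 and Snap25, and Omp, which marks mature olfactory and vomeronasal neurons, had 2 counts, both in deficient replicate 2. Their summed level was 43.4 to 47.8 CPM in libraries of high and 32.4 to 38.7 CPM in those of low Trim28, most of it from the vesicle gene Syp. Syp and Elavl4, both tested, fell with 4 libraries (-0.35 ± 0.08 and -1.55 ± 0.45, edgeR adjusted p = 0.00838 and 0.0293). Of all 12183 genes tested there, 17.4% were called in either direction, 7.39% lower in deficient libraries. Elavl4 had 8 to 57 counts in a library. The part of these markers in the Vmn2r96 result was not tested.

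Summed markers of other blood cells also stood apart by Trim28 level. The summed level of 7 B cell markers was 606 to 697 CPM in libraries of high and 544 to 581 CPM in those of low Trim28, nearly all of it from Ighm, the immunoglobulin heavy chain gene, with 5303 to 6810 counts. That of 7 myeloid markers was 302 to 345 against 262 to 279 CPM, nearly all of it from Ctss, a lysosomal protease gene, with 2607 to 3465 counts. The 5 CD8 T and natural killer cell markers summed to 14.3 to 17.9 CPM with high and 19.99 to 23.3 CPM with low Trim28, and Ncr1 was at 0 throughout. Among them Klrb1c had 24 to 28 counts with high and 90 to 109 with low Trim28, and Cd8b1 116 to 148 and 102 to 131. The gap in the sums thus went with Klrb1c and not with Cd8b1. The markers called in the 4-library comparison stand beside 17.4% of all 12183 genes called there, 9.96% higher and 7.39% lower in deficient libraries. Of 4 tested B cell markers 3 fell, among them Igkc (-2.55 ± 0.57), with a list median of -0.73 on the log2 scale. Of 2 tested myeloid markers Ctss fell (-0.34 ± 0.05), while Itgam, at 12 to 27 counts, had the opposite sign and did not pass (0.81 ± 0.36). Of the 2 tested CD8 T and natural killer cell markers Klrb1c rose (1.94 ± 0.22, edgeR adjusted p = 1.86e-05), while Cd8b1 had the opposite sign and did not pass (-0.22 ± 0.17). Of 7 Treg markers Ikzf2 rose (0.19 ± 0.05) and Foxp3 (-0.25 ± 0.05) and Cd4 (-0.15 ± 0.05) fell, with a list median of -0.08. Over all 6 libraries Ikzf2 and Foxp3 did not follow Trim28 level. Ikzf2 had 12475 counts in deficient replicate 3, high in Trim28, and 9533 to 10084 with low Trim28. Foxp3 stood at 612 CPM in deficient replicate 3 and at 621 CPM in sufficient replicate 3, low in Trim28. Cd4 stood at 879 to 988 CPM with high and 814 to 876 CPM with low Trim28. The 5 erythroid markers had at most 2 counts in a library. The mitochondrial share of counts was 1.61% to 2.097% with high and 1.33% to 1.41% with low Trim28. Their part in the Vmn2r96 result was not tested, and in bulk RNA more cells making a transcript and more transcript per cell cannot be told apart.

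Of 14 genes for heterochromatin partners of KAP1, 7 rose and 3 fell in the 4-library comparison, where 17.4% of all genes were called, and none was called with 6 libraries. Setdb1, the methyltransferase that KAP1 recruits, was among those that rose (1.29 ± 0.05). Trim28 itself is left out of this count, since its level decided which libraries were kept.

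The authors' deposited table of their own comparison lists 122 Vmn2r genes, with all 92 members among them, and 103 of the 122 at a mean level of 0. Vmn2r96 has a log2 fold change in the authors' deposited table of -2.83, with negative values standing for a higher level in deficient cells, and an adjusted p of 7.97e-116. Its mean level there, 252, is above its mean of 163 counts per library in the count table. The authors' deposited table also calls Vmn2r98, at a mean level of 15.8 with a log2 fold change of -0.66 and an adjusted p of 1.38e-07. Vmn2r98 lies in the stretch of the chromosome 17 group but is not among the 92 members, so it was not analysed here by counts. The authors' deposited table thus calls 2 of the 5 Vmn2r genes that have an adjusted p there, both higher in deficient cells. Of all its 12072 genes with an adjusted p, 3.85% are called in that direction. Vmn2r97 did not pass in the authors' deposited table, at a log2 fold change of -0.33 and an adjusted p of 0.0671. Trim28 has a log2 fold change of 3.11 in the authors' deposited table, a higher level in sufficient cells. Fitted from the count table with edgeR, as deficient minus sufficient, it was -0.90 ± 1.46 (SE) with all 6 libraries by label, and -3.54 ± 0.08 with the 4 libraries, which were chosen on it. The sources used here do not say which libraries entered each side of the authors' comparison, or how its fold changes were estimated. Vmn2r82 has a log2 fold change there of -0.004 ± 0.017 (SE) at a mean level of 0.170. Fold changes there and in the edgeR fits may thus differ in scale, and their sizes were not compared.

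**Figure D5:**
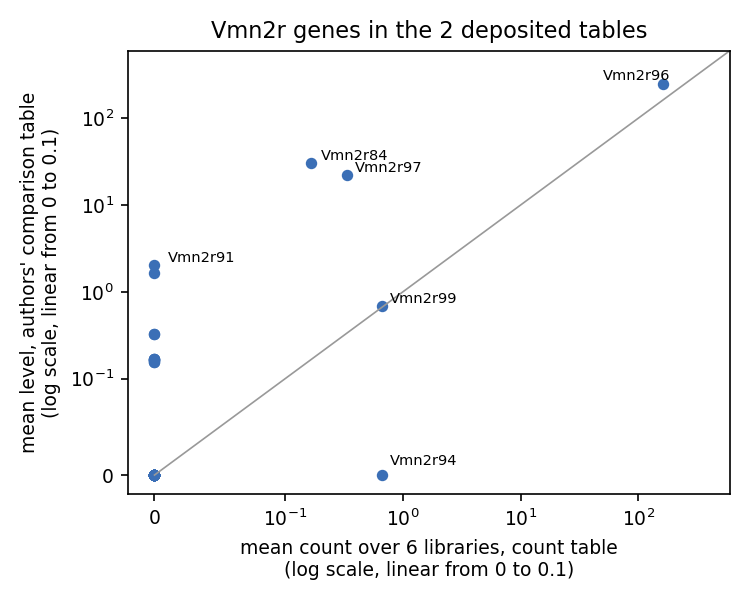
Mean level in the authors' comparison table (vertical axis) against the mean count per library in the count table (horizontal axis) for the 92 Vmn2r genes, on log scales that are linear from 0 to 0.1, with a line of equal values. Vmn2r96 lies near the line, Vmn2r84 and Vmn2r97 far above it, and Vmn2r94 below it at a level of 0.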

How the data were processed

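The submitters' processing notes name the mm10 build, DESeq2, HTSeq 0.7.2 and TopHat2 2.1.1 without saying what each did; the sources used here give neither annotation release nor strand setting. The deposited count table holds raw counts per Ensembl gene, without normalization. The authors' comparison table gives a mean normalized signal per gene (here the mean level). Per the file headers its other values are log2 fold changes and their SEs. The score of each test and the p-values, raw, adjusted and as q-values, are also as deposited by the authors.

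Symbols matched 32919 of 37991 identifiers, and the 5072 unmatched rows held 0.603% of counts. Positions are from GENCODE M21 on mm10. CPM uses library totals, and RPKM also the exon length. The count test was edgeR's robust quasi-likelihood test (version 4.0.16, R 4.3.3, TMM, filterByExpr), adjusted over all genes tested by Benjamini-Hochberg at 0.05, with SEs derived from the fold change and F value. Alternatives used DESeq2 1.42.0, limma-voom (limma 3.58.1), other scaling factors and filters, a replicate block and leaving out each library. Between any 2 libraries the chi-square per degree of freedom was at least 2.43, more than sampling noise gives, and all 6 were kept as separate. The fits were also run on simulated counts in which every library followed its label. That check does not cover libraries that go against their label. Tables used Python 3.11.15.

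The members, lists and 4-library fit were chosen with earlier results of these data known. Genes named were Trim28, members with at least 10 counts or passing the filter, and called or abundant list members; Vmn2r84, Vmn2r94, Vmn2r97, Vmn2r99, Olfr56, Fpr1, the genes nearest Vmn2r96 and some markers at 0 were named after their values were seen.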

Additional observations from a re-analysis of the deposited data

Results flagged for a closer look

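Levels outside the count table stood out for 4 Vmn2r genes, because the authors' deposited table lists them above a mean of 3 while the count table holds 2 counts or fewer for them or was not used for them here. In the authors' deposited table Vmn2r84 has a mean level of 30.4, and it had 1 count over the 6 libraries of the count table. Vmn2r97 has a mean level of 22.1 in the authors' deposited table, against 2 counts in all. Vmn2r98, at 15.8, and Vmn2r29, at 6.03, are listed in the authors' deposited table. No row of the count table was matched to these symbols, so they were not analysed here by counts. Of these 4 genes Vmn2r98 passes there, and the log2 fold change of Vmn2r84 in the authors' deposited table is -0.00. For 12 members at 0 in the count table the authors' deposited table has a level above 0, at most 2.02 (Vmn2r91). Why the deposited tables differ was not tested.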

How the results depend on the processing

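With all 6 libraries by label, 0 members were called under every alternative except leaving out sufficient replicate 3 and deficient replicate 3, which gave 1 member and a Vmn2r96 log2 fold change of 4.31. The Vmn2r96 value ran from 0.70 without deficient replicate 2 to 3.74 without sufficient replicate 3. In the 4-library fit Vmn2r96 kept its call in all 11 alternatives, at 4.16 to 4.48, with adjusted p-values up to 1.44e-06. With the replicate block Vmn2r96 was at 1.90 with 6 and 4.32 with 4 libraries, and no call changed. Between libraries of the same number, deviations from the group means had correlations of -0.365, -0.292 and -0.613 with 6 libraries, where the libraries that go against their label both bear the number 3, and at -0.02 with 4, so the numbers were not taken to pair samples. Members with counts numbered 5, or 2 with at least 3 counts in a library and 1 with at least 10 counts in all. The 1 member found with low Trim28 alone became 0 when all 3 libraries had to hold a count, and 0 to 3 when single libraries were left out. The summed difference between labelled groups, 13.2 CPM, ran from 6.38 to 24.1 CPM without single libraries and was 32.0 CPM without both number 3 libraries, an alternative chosen after seeing the data. Depth limits what can be said of members under 0.273 to 0.301 CPM in a library. Over all genes, the 4-library calls ran from 935 with DESeq2 to 2607 with no filter, beside 2114, and the 6-library calls from 0 with the replicate block to 6 with DESeq2, beside 2, and reached 807 without sufficient replicate 3.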
